A study of Mus musculus with 2 samples.

Results

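Open chromatin sites that lie far from any gene were taken from a DNase-seq map of mouse embryonic liver. A site was counted as far where its peak was on an autosome, overlapped no gene of the GENCODE vM21 annotation and had its summit over 100 kb from the nearest protein-coding start. By this rule 3945 of the 83870 autosomal peaks of technical replicate 7 were far (4.70%), out of 86036 peaks in all. They were set against the 17605 intergenic peaks (21%) that also overlap no gene but lie 1 to 100 kb from a start, called near peaks here. The remaining 2654 of the 24204 peaks outside genes lay under 1 kb from a start and entered neither class.

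DNase-seq marks accessible DNA by sequencing the cuts that the nuclease DNase I leaves in it. The tissue was liver of B6NCrl mouse embryos at 11.5 days, with males and females pooled. The series holds 2 libraries, technical replicates 7 and 1 of 1 biological replicate, so there is no second condition and no spread between animals. Density is the deposited signal at a peak; its scale differs between the libraries and is not given in the sources used here, so densities are compared within a library and only set side by side across them. Shares have exact 95% binomial intervals, differences have Newcombe intervals, and both cover counting error only.

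Long stretches of sequence without genes often flank developmental regulators, and enhancers in them can act on promoters at a great distance through looping of the chromatin. CTCF, the insulator protein, binds many sites between genes and, with cohesin, anchors such loops in a way that depends on the strand of its motif. The young liver bud is built of hepatoblasts, which later form hepatocytes and bile duct cells, and is seeded by blood progenitors. Red cell genes use GATA1 and TAL1 on a composite of a GATA site and part of an E-box.

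Peaks were looked up at the starts of marker genes of several cell types. Within 1 kb of a start technical replicate 7 had a peak at 10 of 12 erythroid, 11 of 12 hepatoblast, 7 of 8 endothelial, 8 of 8 mesenchymal, 3 of 8 macrophage and 7 of 8 neuronal markers. Technical replicate 1 had one at 10, 6, 4, 8, 1 and 4 of these. Alas2 and Hbb-y of the red cell list and Alb of the hepatoblast list had none in technical replicate 7. The share of all protein-coding starts with a peak was not counted, and neuronal starts were open as well. The counts therefore do not test the tissue label. Bulk tissue gives no assignment of a peak to a cell type, and fewer cells of a type cannot be told apart from weaker opening in each cell.

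Peak sequences are shown for the far sites that the results below turn on, because they carry the motifs that are counted. Each is 150 bases around the summit on the plus strand of GRCm38, in lower case, with the motif match in capitals. The first pair are CTCF sites, with the consensus of the insulator protein marked. The chromosome 1 site was listed in both libraries, with a density of 3.71 in technical replicate 7 and of 5.05 in technical replicate 1. It lies 0.317 kb from the noncoding gene Gm26901. That on chromosome 4 reached 2.66 in technical replicate 7 and 2.32 in technical replicate 1. It is between Chd7 and Clvs1, 133.3 kb from the start of Clvs1.

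CTCF site, chr1:7398111-7398260: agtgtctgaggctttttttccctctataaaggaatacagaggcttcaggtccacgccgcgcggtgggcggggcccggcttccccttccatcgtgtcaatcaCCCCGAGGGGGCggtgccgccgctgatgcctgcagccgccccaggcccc
CTCF site, chr4:9135907-9136056: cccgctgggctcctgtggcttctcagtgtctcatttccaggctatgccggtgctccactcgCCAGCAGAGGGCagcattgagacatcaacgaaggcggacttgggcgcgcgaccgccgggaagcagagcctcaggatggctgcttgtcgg

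The next sequences hold the composite of GATA and E-box, marked from the E-box part to the end of the GATA site, on either strand. They were among the 5 densest far peaks with this composite, and each was listed in both libraries. The first lies between Npvf and Nfe2l3, the second between Mbnl1 and P2ry1, the third between Klf13 and Trpm1, and the fourth between Pdgfra and Kit, 197.4 kb from the start of Kit, the receptor of stem cell factor.

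GATA with E-box, chr6:50890869-50891018: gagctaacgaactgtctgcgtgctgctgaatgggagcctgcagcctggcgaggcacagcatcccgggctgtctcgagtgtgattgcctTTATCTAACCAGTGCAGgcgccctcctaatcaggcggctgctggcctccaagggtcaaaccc
GATA with E-box, chr3:60785267-60785416: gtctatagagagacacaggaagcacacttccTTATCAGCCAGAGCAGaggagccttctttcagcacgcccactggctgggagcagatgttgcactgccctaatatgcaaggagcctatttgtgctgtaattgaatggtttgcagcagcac
GATA with E-box, chr7:64049368-64049517: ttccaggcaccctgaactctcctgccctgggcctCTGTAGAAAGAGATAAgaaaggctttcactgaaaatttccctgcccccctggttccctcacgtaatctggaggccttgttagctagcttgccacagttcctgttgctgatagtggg
GATA with E-box, chr5:75377387-75377536: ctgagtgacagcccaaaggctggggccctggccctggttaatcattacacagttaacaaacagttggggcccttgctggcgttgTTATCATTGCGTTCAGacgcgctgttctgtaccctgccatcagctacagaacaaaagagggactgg

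REST, a repressor of neuronal genes outside the nervous system, has a long motif that was almost never matched outside peaks. A pair of its densest far sites are shown because its share was higher in far than in near peaks. They lie between Zc3h12a and Grik3 and between Melk and Pax5. The site beside Pax5 is 12.9 kb from the gene and 133.8 kb from its nearest start.

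REST site, chr4:125300635-125300784: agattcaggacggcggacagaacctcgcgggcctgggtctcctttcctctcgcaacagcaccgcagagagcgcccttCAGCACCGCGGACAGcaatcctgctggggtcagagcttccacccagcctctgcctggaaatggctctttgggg
REST site, chr4:44511818-44511967: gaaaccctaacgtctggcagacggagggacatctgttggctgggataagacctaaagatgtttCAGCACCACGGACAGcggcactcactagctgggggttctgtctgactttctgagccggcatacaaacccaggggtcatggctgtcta

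Of the liver factor motifs, 3 sites are shown. The first, at 1.13 kb from the miRNA gene Mir148a, carries a C/EBP match at its edge. The second, between Wdfy3 and Arhgap24, has its FOXA match marked and holds a C/EBP match as well. The third is the single far peak with an HNF1 match, between Hs3st3a1 and Elac2.

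C/EBP site, chr6:51270964-51271113: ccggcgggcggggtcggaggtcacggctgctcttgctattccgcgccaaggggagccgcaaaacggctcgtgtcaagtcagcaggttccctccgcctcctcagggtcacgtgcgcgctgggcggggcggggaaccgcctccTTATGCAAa
FOXA site, chr5:102207069-102207218: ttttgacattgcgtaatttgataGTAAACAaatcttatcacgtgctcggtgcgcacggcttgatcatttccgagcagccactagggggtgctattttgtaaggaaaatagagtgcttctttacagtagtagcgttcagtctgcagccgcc
HNF1 site, chr11:64542482-64542631: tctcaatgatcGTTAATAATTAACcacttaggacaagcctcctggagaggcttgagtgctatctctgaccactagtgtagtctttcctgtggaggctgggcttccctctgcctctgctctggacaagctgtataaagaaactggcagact

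Far sites were sparse. Far sequence, meaning sequenced autosomal bases that meet the same rule, came to 635.9 Mb (26.5% of the autosomes), and near sequence came to 584.8 Mb (24.4%). There were 6.20 far peaks per Mb (exact Poisson interval 6.01 to 6.40) against 30.1 near peaks per Mb (29.7 to 30.6), a ratio of 0.206 (0.199 to 0.213). In technical replicate 1 the rates were 1.06 far peaks and 10.5 near peaks per Mb, and the ratio was 0.101 (0.0933 to 0.109). Over all autosomal sequence technical replicate 7 had 35.0 peaks per Mb.

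Open sites thinned out with distance. From 1 to 10 kb from a start there were 44.6 intergenic peaks per Mb, from 10 to 50 kb 29.8, from 50 to 100 kb 18.4, from 100 to 200 kb 11.4, from 200 to 500 kb 5.93 and beyond 500 kb 2.06. The share of peaks also listed in technical replicate 1 went down in the same order, at 39.2%, 34%, 28.4%, 20.4%, 16% and 6.05%. Just inside the far limit, at 100 to 110 kb, 21% of 314 peaks were shared and the median density was 0.461. Just outside it, at 90 to 100 kb, 25.5% of 380 peaks were shared and the median density was 0.477. Beyond 500 kb, 16.3% of the 430 windows were at least 50% repeat, against 3.0% at 100 to 200 kb.

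**Figure D1:**
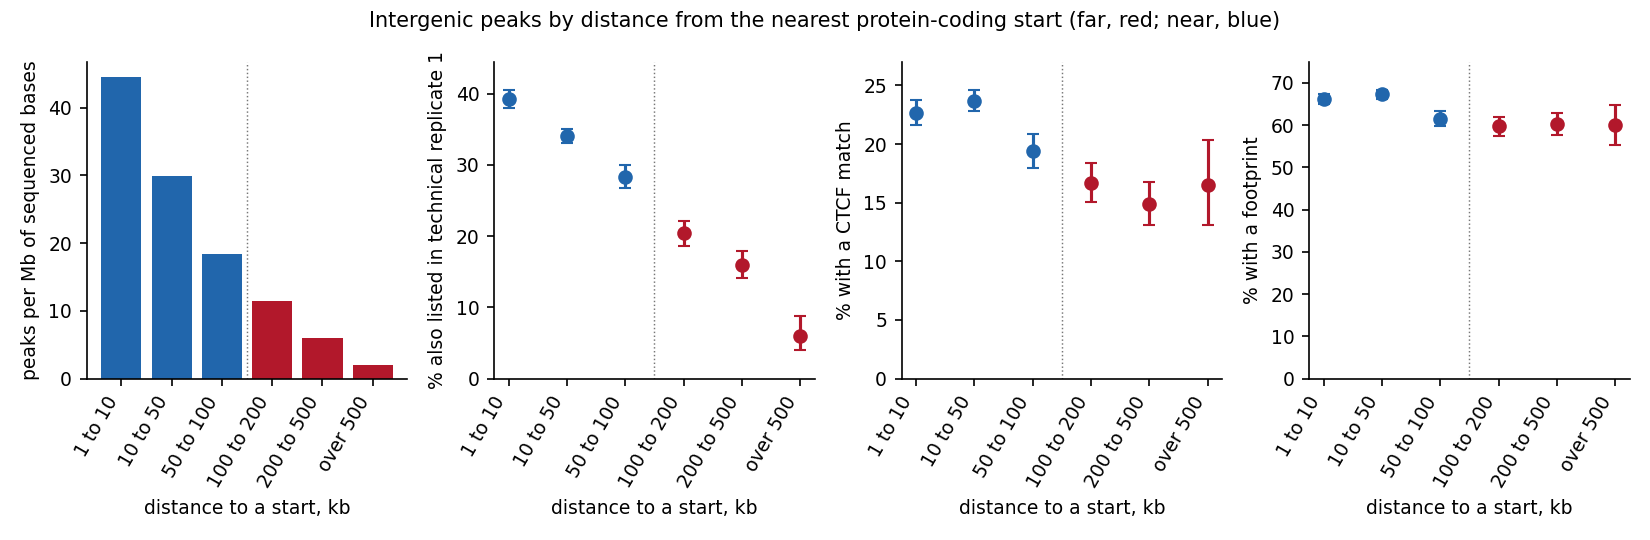
Intergenic peaks of technical replicate 7 by distance of the summit from the nearest protein-coding start (x axes, kb; red, far; blue, near). From left to right the panels give peaks per Mb of sequence, the percent also listed in technical replicate 1, the percent with a CTCF match and the percent with a footprint; bars on points are exact 95% binomial intervals. Peaks per Mb decline from 44.6 to 2.06 across the distance classes, while the share with a footprint stays between 59.7% and 67.3%.

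Far peaks were weaker, and those of technical replicate 7 were less often found again. In technical replicate 7, 677 of the 3945 far peaks (17.2%, 16 to 18.4) overlapped a peak of technical replicate 1 by at least 1 bp, against 34.9% of near peaks (34.2 to 35.6). The difference was -17.7 percentage points (-19.0 to -16.3). The background over all autosomal peaks was 46.2%. With the longer peak list of technical replicate 1 the shares were 24.2% of far, 44.1% of near and 54.0% of all autosomal peaks. In the reverse direction, 643 of the 677 far peaks of technical replicate 1 (95%) overlapped a peak of technical replicate 7, as did 95% of its near peaks. The interval of that difference, -1.99 to 1.52 points, includes 0. Over all autosomal peaks of technical replicate 1 the share was 90.1%.

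The median density of far peaks was 0.425 (quartiles 0.340 and 0.633), and that of near peaks was 0.609 (0.433 and 1.02). Above the median density of all autosomal peaks lay 25.2% of far and 48.2% of near peaks, a difference of -23.0 points (-24.5 to -21.4). The lowest 10% of densities held 32.1% of far and 9.53% of near peaks. The top 10% held 32 far peaks (0.811%) and 417 near peaks (2.37%). In technical replicate 1, 15.5% of its far and 34.1% of its near peaks were above the median. The mean width was 277.2 bp for far and 269.4 bp for near peaks. A window with no CG dinucleotide was found for 16.2% of far peaks (15.1 to 17.4) and 10.4% of near peaks, 5.79 points higher (4.58 to 7.05). Over all autosomal peaks it was 7.56%. The −log10 of the false discovery rate of the hotspot that holds a peak had a median of 6.50 for far and 9.44 for near peaks.

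Density and sharing moved together. When near peaks were weighted to the density deciles of far peaks, the difference in the share also found in technical replicate 1 shrank to -2.74 points. In the lowest decile 2.53% of far and 5.01% of near peaks were shared, and in the ninth 81.1% (73.2 to 87.5) of far and 90.1% (88.7 to 91.4) of near peaks. In the top decile 24 of 32 far peaks (75%, 56.6 to 88.5) were shared, against 97.6% of near peaks (95.6 to 98.8).

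**Figure D2:**
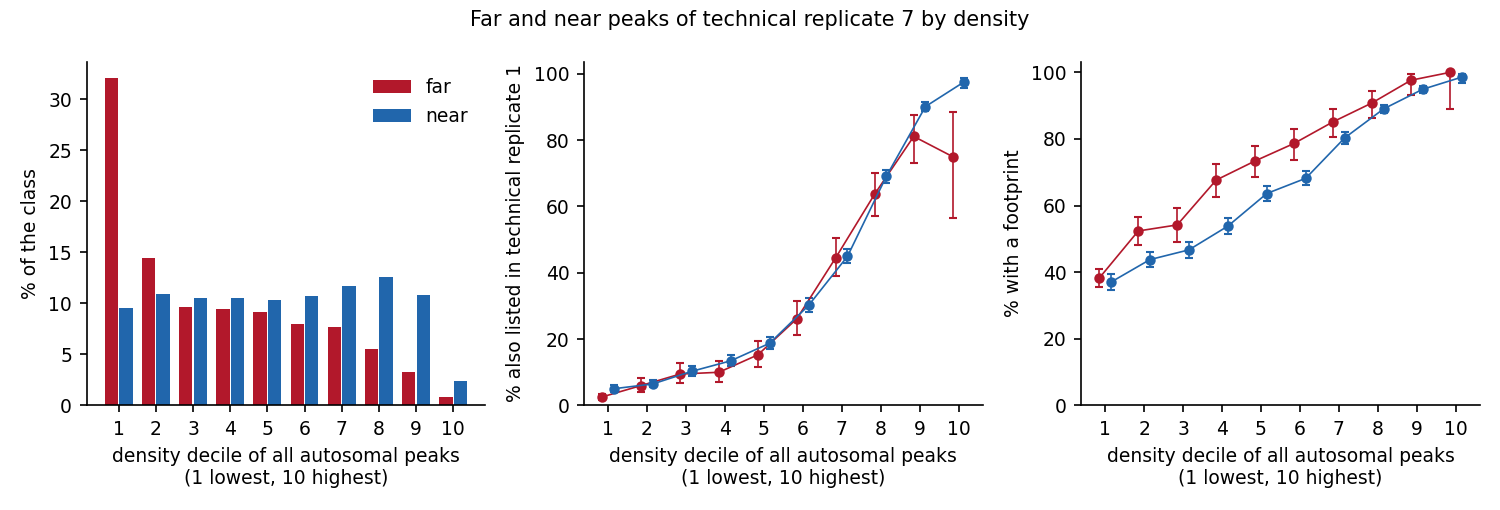
Far (red) and near (blue) peaks of technical replicate 7 in deciles of the density of all autosomal peaks (x axes, 1 lowest to 10 highest). The left panel gives the percent of each class in a decile, the middle one the percent also listed in technical replicate 1, and the right one the percent with a footprint; bars on points are exact 95% intervals. Far peaks crowd into the lowest decile (32.1%). Their share with a footprint is above that of near peaks in each decile, with overlapping intervals in deciles 1, 7, 8, 9 and 10.

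Footprints, the short protected stretches that bound proteins leave within an open site, were present in 59.9% of far peaks (58.4 to 61.5) and 66.0% of near peaks (65.3 to 66.7), a difference of -6.02 points (-7.71 to -4.35). The background over all autosomal peaks was 58.3%. At matched density the order turned round: with near peaks weighted to far density deciles the difference was 6.22 points, and in the fourth decile 67.7% of far and 53.8% of near peaks held a footprint. With the longer footprint list it was 0.802 points, and in technical replicate 1 with its own list 0.587 points, both with intervals that included 0 and footprints in 94.1% of far and 93.3% of near peaks for the longer list, and in 93.9% of far and 93.4% of near peaks in technical replicate 1. It was -2.53 points with distances to the starts of all genes and -2.41 points in peaks of both libraries, with intervals that included 0. At least 3 footprints were found in 5.65% of far and 8.26% of near peaks, and in 12.2% of all autosomal peaks. In technical replicate 1 with its own list, 84.9% of all autosomal peaks held a footprint.

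CTCF sites were less frequent far from genes than near them, though common in both. A CTCF match lay within 75 bp of the summit in 630 far peaks (16%) and 3984 near peaks (22.6%), a difference of -6.66 points with an interval of -8.60 to -4.59. Motif intervals here are at 99.75%, adjusted over the 20 motifs searched, and a motif is called where its interval excludes 0. All autosomal peaks had a match in 13.8% of windows. Windows of the same length 2 kb away from the summits, outside every listed peak, had one in 0.363% of cases beside far and 1.12% beside near peaks. The difference was -1.30 points with an interval that includes 0 when near peaks were weighted to the density of far peaks.

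Far peaks with CTCF were stronger and more often shared than the other far peaks. Of the 630, 168 (26.7%, 23.2 to 30.3) were in both libraries, against 509 of 3315 far peaks without CTCF (15.4%, 14.1 to 16.6), a difference of 11.3 points (7.77 to 15.1). Their median density rank was the 47.9 percentile, against 19.9 without CTCF. A footprint was present in 80.6% with and 56.0% without a match. Near peaks with CTCF were shared in 46.9% and held a footprint in 87.0% of cases, against 34.9% and 66.0% of all near peaks. Of 636 single CTCF matches in far peaks, 461 (72.5%) lay in a footprint, and 55.7% of their bases were covered against 6.13% of the other bases in those windows. The motif pointed along the plus strand in 326 far peaks, along the minus strand in 302 and both ways in 2. By distance the share with CTCF was 16.7% at 100 to 200 kb, 14.9% at 200 to 500 kb and 16.5% beyond 500 kb, with overlapping intervals.

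The composite of GATA and E-box did not differ in share beyond counting error, with a difference of -0.0815 points and an interval of -1.09 to 1.09. It was searched as CTG, then 8 or 9 bases of which the last is A or T, then GATA with A or G after it. It was found in 170 far peaks (4.31%) and 773 near peaks (4.39%). The background over all autosomal peaks was 3.64%, and windows 2 kb away had it in 1.13% of cases beside far and 0.977% beside near peaks. Of the 170, 24 were shared (14.1%, 9.26 to 20.3), against 17.3% of far peaks without it, and 37 of 177 single matches (20.9%) lay in a footprint. Its share was 4.81% at 100 to 200 kb, 4.19% at 200 to 500 kb and 2.33% (1.12 to 4.24) beyond 500 kb.

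GATA alone (AGATAA or AGATAG, and TGATAA or TGATAG), which every composite also contains, was in 1225 far peaks (31.1%) and 27.3% of near peaks, 3.77 points higher (1.36 to 6.25). Beside far peaks it was in 27.3% of flanking windows and beside near peaks in 23.0%, so the surroundings differed in the same direction; the background over all peaks was 22.1%. With near peaks weighted to the GC content of far peaks the difference was 1.13 points, and weighted to their density 2.11 points, and both intervals included 0. They also did with distances to the starts of all genes (0.742 points), a limit of 200 kb (3.16) and technical replicate 1 alone (4.30). Mean GC content was 49.3% in far and 52.2% in near windows. KLF matches (CCACACCC, CCACGCCC, CCCCACCC or CCCCGCCC), bound by red cell and other Krüppel-like factors, were in 6.21% of far and 11.2% of near peaks, -5.01 points (-6.31 to -3.57), and in 17.4% of all peaks. Weighting for GC content gave -2.15 points (-3.44 to -0.855). In peaks of both libraries that difference was -2.97 points and in technical replicate 1 alone -3.08 points, with intervals that included 0. Flanking windows had a KLF match in 3.04% of cases beside far and 4.90% beside near peaks, so here too the surroundings differed in the same direction. Far peaks with KLF were shared in 76 of 245 cases (31%), against 16.2% of far peaks without it. Near peaks with KLF were shared in 44.1% of cases, against 34.9% of all near peaks.

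Among other blood factor motifs no interval excluded 0 in the main setting. Some did under an alternative: the E-box with weighting for GC content (2.36 points, 0.519 to 4.21) and with a limit of 50 kb (1.80), ETS with a limit of 50 kb (1.17) and AP-1 with a limit of 200 kb (-1.64). RUNX (TGTGGTC or TGTGGTT) was in 7.45% of far and 8.17% of near peaks with a background of 6.28%, and ETS (AGGAAGT) in 7.68% of far and 6.56% of near peaks with a background of 6.05%. The E-box CAGCTG was in 14.4% of far and 13.9% of near peaks (all peaks, 12.7%). NFE2 (GCTGACTCA or GCTGAGTCA, which contain the AP-1 site) was in 1.37% of far and 1.79% of near peaks (all, 1.27%), AP-1 (TGACTCA or TGAGTCA) in 4.49% of far and 5.12% of near peaks (all, 3.74%), and MEIS in 7 far peaks, 0.177%, against 0.119% of near peaks (all, 0.129%).

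Most liver factor motifs were rare in far peaks, and the shares of FOXA and ONECUT were lower at the summits than 2 kb away. FOXA (TATTTAC or TGTTTAC) was in 185 far peaks (4.69%) and 3.77% of near peaks, while windows 2 kb away had it in 5.32% of cases beside far and 4.06% beside near peaks; all peaks had 3.0%. The FOXA difference was called with a limit of 50 kb (1.03 points), with the longer peak list of technical replicate 7 (1.19) and in windows of 200 bp (1.84). ONECUT (ATCAATA) was in 51 far peaks (1.29%) and 0.693% of near peaks, 0.600 points higher (0.108 to 1.29), with 2.41% in windows beside far and 1.58% beside near peaks and a background of 0.601%. The ONECUT interval included 0 in 7 of the alternatives, among them both weightings (0.412 points for GC content, 0.503 for density). HNF4 (CAAAGTCCA or CAAAGTTCA) was in 29 far peaks (0.735%) and 0.653% of near peaks (all, 0.527%), and 7 of its 29 matches lay in a footprint. C/EBP (TTACGCAA, TTATGCAA, TTGCGCAA or TTGTGCAA) was in 53 far peaks (1.34%) and 1.47% of near peaks (all, 1.14%). NR5A2 (CAAGGTCA) was in 1.32% of far and 0.920% of near peaks (all, 0.844%), and its difference was called with that longer list (0.50 points) and in windows of 100 bp (0.513). HNF1 was in 1 far peak (0.0253%) and 10 near peaks (0.0568%; all, 0.0382%), and that far peak was not listed in technical replicate 1.

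Far peaks with a FOXA match were less often shared than other far peaks, and so were those with several motifs of other factors. Both libraries listed 14 of 185 with FOXA (7.57%, 4.20 to 12.4), against 17.6% of far peaks without it, a difference of -10.1 points (-13.3 to -5.19). The difference was -14.2 points for TEAD (-16.5 to -9.60), -6.73 for AP-1 (-10.7 to -1.18), -6.05 for RUNX (-9.46 to -1.72) and -5.47 for GATA (-7.82 to -3.00). Near peaks with these motifs were also shared less often than the 34.9% of all near peaks. Their shares were 23.3% for FOXA, 25.5% for TEAD, 21.3% for AP-1, 27.7% for RUNX and 24.7% for GATA. The lower sharing is therefore not particular to far peaks. Of far peaks, both libraries listed 2 of 29 with HNF4, 7 of 53 with C/EBP and 6 of 51 with ONECUT, each with an interval that overlaps that of far peaks without the motif. HNF4 sites between Fn1 and Mreg and between Rgs3 and Zfp618 had densities of 0.721 each and were in technical replicate 7 only, as were ONECUT sites between Atp10a and Ube3a (1.03) and between Chl1 and Cntn6 (0.937). FOXA sites between Btg1 and Dcn (1.44) and between Wdfy3 and Arhgap24 (density 1.25) were in both libraries, with 1.45 and 0.919 in technical replicate 1. Btg1, an antiproliferative gene, has its start 105.2 kb from that site.

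The REST motif had a higher share in far than in near peaks. It was in 42 far peaks (1.06%) and 84 near peaks (0.477%), 0.588 points higher (0.153 to 1.22), with a background of 0.429% and matches in 0% of windows beside far and 0.00614% beside near peaks. The share was 0.933% of 2036 peaks at 100 to 200 kb, 1.08% of 1479 at 200 to 500 kb and 1.63% of 430 beyond 500 kb. These rest on the 42 peaks in all and were given no intervals, so no trend with distance is read from them. Of the 42 matches 35 (83.3%) lay in a footprint, and 14 of the 42 peaks were shared (33.3%, 19.6 to 49.5), against 17% of far peaks without it. Near peaks with REST were shared in 52.4% of cases, against 34.9% of all near peaks. The far minus near difference in the REST share was 0.625 points after weighting for GC content and 0.675 points after weighting for density, both with intervals above 0. With distances taken to the starts of all genes it was 0.572 points, and the interval included 0. REST sites were picked out after their values were seen. Those shown above had densities of 1.48 and 1.38 in technical replicate 7 and of 1.44 and 0.939 in technical replicate 1. TEAD (ACATTCCA, ACATTCCT, GCATTCCA or GCATTCCT) was also called, in 3.62% of far and 2.72% of near peaks (all, 2.41%). Its sign turned round in peaks of both libraries (-1.25 points) and in technical replicate 1 alone (-0.618 points), with intervals that included 0. The TEAD interval also included 0 with weighting for GC content (0.972 points) or density (0.585) and with a limit of 200 kb (0.861). So it did with near peaks from 10 kb on (0.763) and windows of 100 bp (0.704), and the other alternatives kept the call. NFI was in 12 far peaks, 0.304%, against 0.148% of near peaks (all, 0.0930%), and NRF1 in 4, 0.101%, against 0.0909% of near peaks (all, 0.417%).

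**Figure D3:**
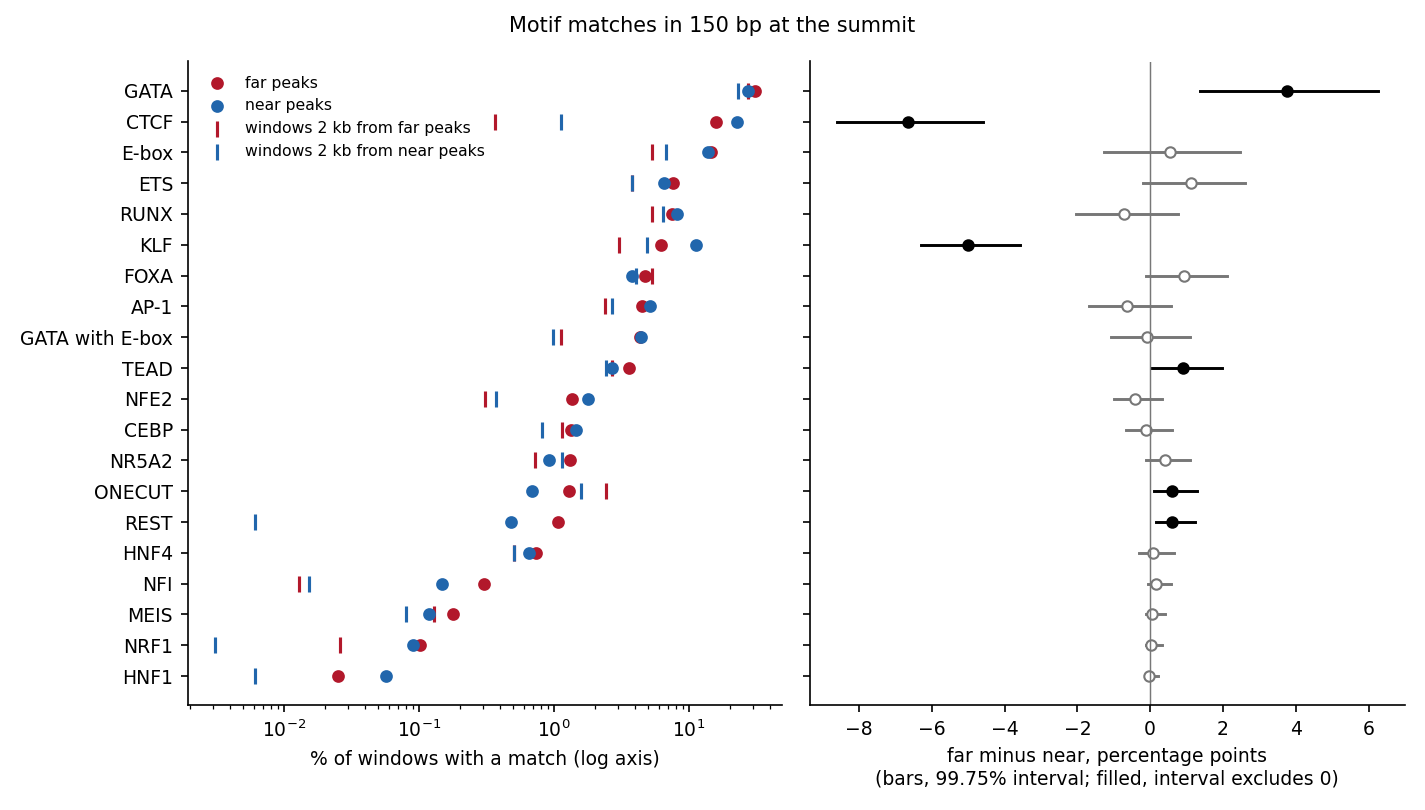
Motif matches in 150 bp at the summits of far and near peaks. The left panel gives the percent of windows with a match on a log axis for far peaks (red dots), near peaks (blue dots) and windows 2 kb from them (vertical ticks, shares of 0 not drawn), and the right panel gives far minus near in percentage points with 99.75% intervals. CTCF (-6.66 points) and KLF (-5.01) lie left of 0, GATA, TEAD, ONECUT and REST lie right of it, and GATA with E-box lies at -0.0815.

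The far peak with the highest mean rank over both libraries, chr1:122357117-122357303, had densities of 14.1 in technical replicate 7 and 9.26 in technical replicate 1 and is 789.2 kb from the start of Ddx18. Part of its sequence recurs: 27 of its 119 stretches of 32 bases occur elsewhere in the assembly, on chromosomes 2 and 5. What this sequence is was not determined, and cuts from this site and from its copies cannot be told apart here, so its density may not belong to this place alone. Any copies that the assembly lacks were not counted. Next came chr6:51270908-51271171 beside Mir148a, with 4.77 and 4.52, and chr10:11492051-11492246 between Epm2a and Utrn, with 6.01 and 3.94. None of the 119 stretches of either recurs. A pair of abutting peaks on chromosome 1, at 7397919 to 7398069 and 7398070 to 7398254, had 3.81 and 3.71 in technical replicate 7 and shared 1 peak of technical replicate 1 with 5.05. The densest far CTCF site outside chromosome 18, chr8:20122152-20122364, had 4.43 and 3.0, and 71 of its 119 stretches recur on chromosomes 8 and 18. Over all far peaks, 89 windows (2.26%, 1.82 to 2.77) had at least 50% of their stretches elsewhere, against 0.704% of near windows (0.586 to 0.839), and 3 of these 89 were shared. In the top 10% of densities the far share was 3 of 32 and the near one 3 of 417.

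Some far peaks lay in clusters. Another peak of its own class lay within 0.0125 Mb of 1600 far peaks (40.6%, 39.0 to 42.1) and of 64.5% of near peaks. Over all autosomal peaks, with any other peak counted, it was 81.8%. The difference between far and near peaks was -24.0 points (-25.6 to -22.3). The lower rate of far peaks, 6.20 against 30.1 per Mb, by itself sets the direction of this difference, so it is given as a description only. Joined at that distance, far peaks formed 2345 single sites, 447 pairs, 123 triplets, 45 groups of 4, 11 of 5 and 13 of 6 or more, the last with 102 peaks. Abutting peaks, at most 1 bp apart, were counted as separate and made up 213 far peaks (5.4%) and 5.61% of near peaks.

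The 5 largest clusters held 8 to 14 peaks. On chromosome 18, 14 peaks in 6.71 kb lie near the start of the assembled sequence, 118.1 kb from the pheromone receptor gene Vmn1r238, and 7 of their windows were at least 50% repeat. On chromosome 6, 51168131 to 51178803, 12 peaks lie between Npvf and Nfe2l3, 254.0 kb from the start of Nfe2l3, a gene of the NF-E2 family, and 91.1 kb from Mir148a. Of these 9 were shared, and no window was at least 50% repeat. On chromosome 11, 18874564 to 18879339, 9 peaks in 4.78 kb lie past the 3′ end of Meis1, 132.7 to 137.3 kb from its start. The densest of them is 1.97 kb from the gene and 134.2 kb from its start. Of the 9 peaks 5 were shared, and the 9 include 3 abutting pairs. On chromosome 10, 119063464 to 119088226, 8 peaks lie between Dyrk2 and Cand1, with 4 shared. On chromosome 5, 64567871 to 64591072, 8 peaks lie between Tbc1d1 and Klf3, 212.4 kb from the start of Klf3, a Krüppel-like factor of red cells. Of these 3 were shared, GATA was in 7 and the composite with an E-box in 2.

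Gaps between neighbouring protein-coding genes held very different numbers. Of 1570 gaps with far sequence 1026 had at least 1 far peak and 544 had none. The gaps held a median of 0.177 Mb of far sequence and at most 4.14 Mb, and these counts are not divided by it. The 68 gaps with 10 or more held 913 far peaks (23.1%). The most lay between Zeb2, which encodes a repressor of the epithelial state, and Acvr2a, an activin receptor, with 29 in 3.01 Mb of far sequence. None of the 29 was shared, and the highest density was 1.05. The gap from Npvf to Nfe2l3 had 26 in 0.502 Mb, of which 14 were shared, with densities up to 5.63. Kif2a to Ndufaf2 had 22 with 10 shared, and Zfp608 to Gramd3 had 22 with 3 shared. Fam49a to Mycn and Serp2 to Lacc1 had 21 each, with 4 shared beside Mycn, a MYC family gene, and 1 beside Serp2. Shared counts of gaps, clusters and genes are of far peaks of technical replicate 7. Several of these peaks can overlap the same peak of technical replicate 1. Among 382 gaps with over 0.5 Mb of far sequence the median was 3.38 far peaks per Mb, Npvf to Nfe2l3 was highest at 51.8, and 30 had none. The longest of those 30, Cox7c to Edil3 and Adam6a to Zfp386, held 2.51 Mb and 2.18 Mb of far sequence. Gaps are set by protein-coding genes only, so a gap need not be free of genes. Genes of other types can lie in it, and their starts did not enter the distance.

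In the Npvf to Nfe2l3 gap the 26 far peaks were spread from 160.2 to 609.2 kb from the start of Nfe2l3. At 541.7 kb lies the composite site shown above, with a density of 2.94 in technical replicate 7 and 2.32 in technical replicate 1. At 495.4 kb lies a CTCF site with densities of 1.33 and 1.06. The cluster of 12 spans 254.0 to 264.4 kb and has its highest peak at 254.0 kb (5.63 and 2.98) and the next at 259.6 kb (3.19 and 2.46). A peak at 223.5 kb had 1.72 and was not listed in technical replicate 1. The peak beside Mir148a lies at 161.6 kb.

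Around Kit, whose receptor is needed by blood progenitors and germ cells, 16 far peaks lay in the gaps on its left and right, and 8 were shared. To the left, towards Pdgfra, the 6 peaks had densities of 0.377 to 1.65. A pair of these were in both libraries, at 197.4 kb (1.65 in technical replicate 7 and 1.05 in technical replicate 1) and at 114.3 kb (1.15 and 0.919). Both hold a GATA match, and the first holds the composite with an E-box. That first site held no footprint of technical replicate 7, and its density rank in technical replicate 1 was the 36.3 percentile. To the right, towards Kdr, 10 peaks lay 112.5 to 228.3 kb from a start of Kit with densities of 0.328 to 1.63, and 6 were shared. The highest of them, at 222.1 kb, had 1.63 and 1.33 and holds a CTCF match.

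Beside Meis1, a homeobox partner factor of stem and progenitor cells, 15 of its 19 far peaks lay towards Etaa1, between 132.7 and 860.0 kb from a start. The 5 shared ones all belong to the cluster past its 3′ end, with densities of 0.509 to 1.42 in technical replicate 7. They overlap peaks of technical replicate 1 with densities of 1.27 and 1.79, and several far peaks overlap the same one.

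**Figure D4:**
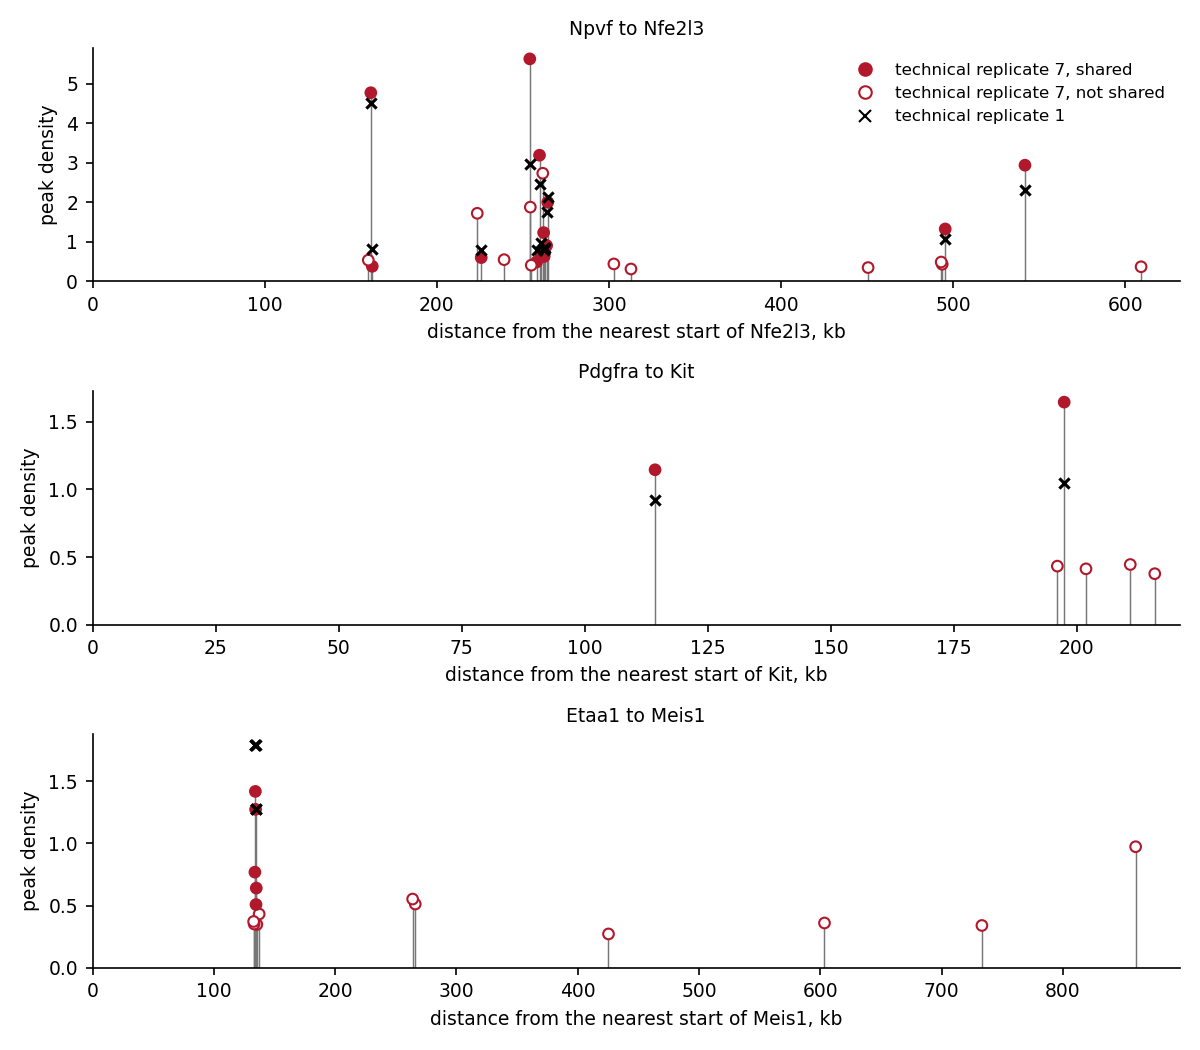
Densities of far peaks (y axes) by distance from the nearest start of the named gene (x axes, kb) in 3 gaps between protein-coding genes. Red circles are technical replicate 7, filled where the peak is also listed in technical replicate 1, and crosses give the density of the overlapping peak in technical replicate 1. The highest peaks between Npvf and Nfe2l3 sit at 254.0 and 161.6 kb (5.63 and 4.77), and those between Pdgfra and Kit at 197.4 and 114.3 kb.

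The medians of far peaks beside bordering genes were higher in the blood, liver and other developmental lists than over all bordering genes. Of all 20807 autosomal protein-coding genes 2614 border far sequence, 1791 of them (68.5%) have at least 1 far peak beside them and 713 (27.3%) at least 1 shared one, with a median of 2 far peaks. Of 10 blood regulators that border far sequence 9 had at least 1, with a median of 6.5, and 7 had a shared one. After Meis1 with 19 and Kit with 16, they were Myc with 14 (1 shared), Runx1 with 11 (2), Sox6 with 7 (2), Bcl11a with 6 (2), Nfia with 3 (1), and Kitl and Mecom with 2 each (0). Bach2 had none. Myc drives growth, Runx1 founds blood stem cells, and Sox6 and Bcl11a act in globin switching.

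Of 15 liver regulators 15 had at least 1, with a median of 9, and 9 had a shared one. Nr2f2, a nuclear receptor, had 18 (3 shared), Hlx, a homeobox gene needed for liver growth, 15 (6), Sall1 15 (4), Gata6 13 (3), Sox9 12 (1), Nr5a2 11 (0), Foxa2 9 (0), Tbx3 9 (2), Hnf4g 8 (0) and Prox1, which hepatoblasts need to spread, 7 (1). The other 5 were Nfib with 5 (1 shared), Cebpb with 4 (0), Onecut1 with 2 (1), Rora with 2 (0) and Dlk1 with 1 (0). Of 21 regulators of other tissues, such as Sox2 and Irx1, 18 had at least 1, with a median of 5, and 5 had a shared one. Sox11 led with 16 (1 shared), and Irx1 and Sox2 had 11 each (4 and 3 shared). Of 20 housekeeping genes only Ywhaz borders far sequence, with 1 far peak. Counts were also divided by length. Far peaks per Mb of far sequence were 16.9 for the blood list, 11.4 for the liver list, 7.20 for the other regulators and 6.18 for all bordering genes. A far peak is counted for the genes on both of its sides, and nothing here ties it to either.

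**Figure D5:**
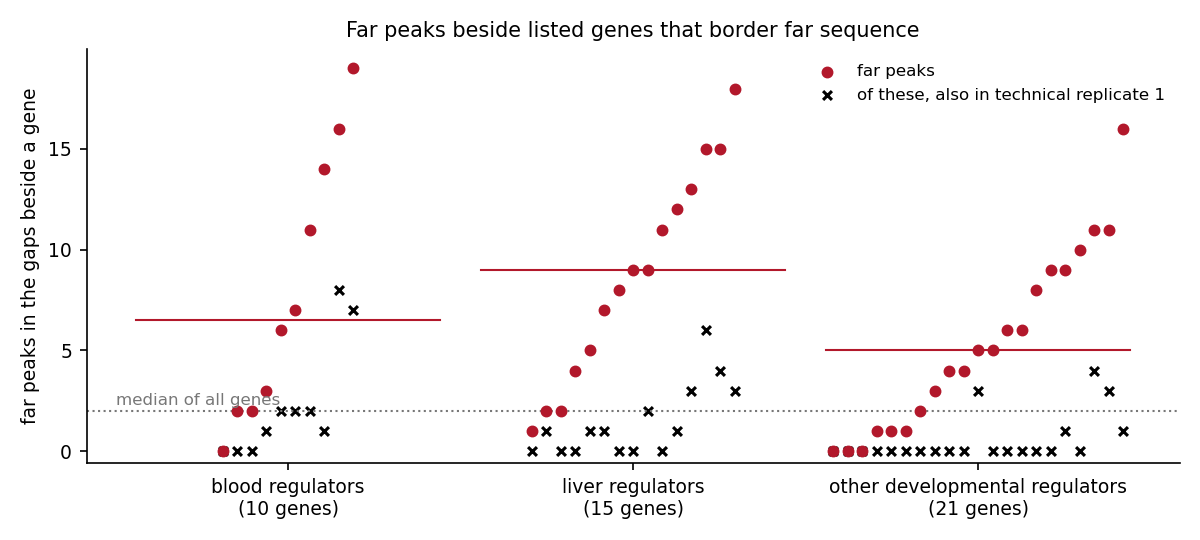
Far peaks in the gaps beside each listed gene that borders far sequence (y axis, number of peaks; 1 dot per gene, ordered within its list; crosses, those also in technical replicate 1). Red lines are list medians (6.5, 9 and 5) and the dotted line is the median of all bordering genes (2); Meis1 is the highest blood gene with 19 and Nr2f2 the highest liver gene with 18.

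The nearest gene body of any kind was a lincRNA for 36.1% of far peaks, a processed pseudogene for 28.9%, a protein-coding gene for 9.0% and a miRNA for 156 peaks (3.95%), with a median distance of 30.8 kb. It was within 10 kb for 905 (22.9%) and over 100 kb away for 527 (13.4%). The rule leaves out protein-coding starts within 100 kb, so these types partly follow from it. A start of any gene, coding or not, lay within 1 kb of the summit of 97 far peaks (2.46%), of 3.14% of near peaks and of 42.3% of all autosomal peaks.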

How the data were processed

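DNase-seq peaks, hotspots and footprints of 2 technical replicates (7 and 1) of 1 biological replicate were used in mm10 coordinates, per the labels. Peak density is the signal the authors deposited, with its scale not given in the sources used here, like the aligner and the peak and footprint callers. The authors deposited separate peak lists for each library. The −log10 false discovery rate of a hotspot was deposited by the authors. The footprint list of technical replicate 1 was deposited by the authors with the same value in every row, read here as an FDR threshold, so only its positions were used.

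Total read counts are not in the files used. Densities below 2 fell on whole multiples of 0.00401 in technical replicate 7 and of 0.0101 in technical replicate 1 (100% within 0.05 steps), a ratio of 2.52 between the steps.

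Genes came from GENCODE vM21 on GRCm38, the build of mm10, and 0 peaks ran past a chromosome end. Far peaks lie over 100 kb and near peaks 1 to 100 kb from a protein-coding start. The 20 motifs were searched on both strands in 150 bp at each summit. Windows at 2 kb that touched no listed peak gave the motif background. Exact 32-base matches were counted over the assembly. Shares have exact (Clopper-Pearson) 95% intervals, and differences Newcombe intervals. These are at 99.75% for far minus near motif differences and at 95% elsewhere, also for far peaks with against without a motif. A difference is called where its interval excludes 0. These intervals treat peaks as independent and cover counting error only. With 1 biological sample there is no test across samples, and no p-value is given.

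Python 3.11.15, numpy 2.4.6, pandas 2.3.3, scipy 1.17.1, pysam 0.24.0 and matplotlib 3.10.9 were used. The interval and copy-counting steps were tested on simulated data. Members and lists were chosen with earlier results of these data known. Named sites are the 5 shared far peaks with the highest mean rank over both libraries, the densest far peaks with a CTCF match (3), the composite (5) or a liver motif (2 each), the 5 largest clusters, the gaps with the most far peaks, and listed genes beside far peaks. Sites picked by CTCF match, composite or liver motif were taken outside chromosome 18. REST sites, gaps without far peaks and the count of recurring sequence were added after their values were seen. Alternatives covered the distance limit, starts of all genes, window length, GC and density weighting, the longer peak and footprint lists, peaks in both libraries and leaving out a library.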

Additional observations from a re-analysis of the deposited data

Results flagged for a closer look

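Technical replicate 1 listed 677 far peaks of its own, and 18 of them (2.66%, 1.58 to 4.17) overlapped no peak in either list of technical replicate 7. They are a signal outside the main list. Their median density rank within technical replicate 1 was the 6.21 percentile, against 16.6 for all its far peaks, and the highest density was 1.29. A CTCF match was in 2 of them. A footprint of technical replicate 1 lay in 61.1% of the 18 and in 94.8% of the others. Among near peaks of technical replicate 1 the count was 225 of 6157 (3.65%).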

How the results depend on the processing

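The lower density and lower rate of far peaks kept their direction under the alternatives tried. The lower share also found in the other library did so only when counted from technical replicate 7. Counted from technical replicate 1 the difference was -0.00348 points. Against the longer list of technical replicate 7 it was 0.996 points (-0.572 to 2.09). Both of these intervals included 0. The footprint difference was less firm: it lost its call with starts of all genes (-2.53 points) and in peaks of both libraries (-2.41), and turned round with near peaks weighted to far density (6.22, 4.40 to 8.04). It was also above 0 without technical replicate 7 (0.587) and with the longer footprint list (0.802), with intervals that included 0. The count of motifs called, 6, became 3 with starts of all genes, 3 in peaks of both libraries, 2 without technical replicate 7 and 2 with density weighting. It was 4 with GC weighting, 5 with a limit of 200 kb, near peaks from 10 kb on (also chosen after seeing the data) or windows of 100 bp, 7 with windows of 200 bp, and 8 with a limit of 50 kb or the longer peak list. Genes with a far peak beside them, 1791, became 713 in peaks of both libraries and 3064 with a limit of 50 kb. The TEAD difference turned round in peaks of both libraries (-1.25) and without technical replicate 7 (-0.618), with intervals that included 0. The cause of these shifts was not tested. REST lost its call with starts of all genes, and CTCF with density weighting. Leaving out windows with recurring sequence, an alternative chosen after seeing the data, gave -17.5 points for sharing, -23.3 for density, -6.63 for footprints and -23.4 for another peak of the class nearby. The density step was 2.52 times larger in technical replicate 1, and the part of depth in the sharing was not tested. No paired analysis was possible because both libraries belong to 1 group.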
